A study of Mus musculus with 10 samples.

Results

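The enzymes and transporters that build and sulfate glycosaminoglycans were followed in 4 groups of mouse skeletal cells. A list of 41 genes was matched by gene name to the expression tables, and 38 of them had a row of their own in both, out of 22125 names found in both. Counted by table, 39 of the 41 had their own row among 22583 chondrocyte names and 38 among 22645 osteoblast names. Chpf2 and Glce shared a row with a microRNA gene in both tables, and Slc35b2 shared one with Nfkbie in the osteoblasts, so the values of those rows are given as shared. The list was ordered by step: 5 genes of the linker, 16 of chondroitin and dermatan sulfate, 11 of heparan sulfate, 3 of hyaluronan and 6 of sulfate and precursor supply.

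RNA was sequenced from 10 libraries. The Col2+ group comprised 3 libraries of Col2a1-ECFP-positive rib chondrocytes from Col2a1-ECFP tg mice, and the Col10+ group 3 libraries of Col10a1-mCherry-positive rib hypertrophic chondrocytes from Col10a1-mCherry tg mice, all of the ICR strain at postnatal day 1. The other groups were calvarial osteoblasts of C57BL/6 embryos at E17.5, with 2 libraries of genotype Runx2_cHet_KO and 2 of genotype Runx2_cHom_KO. The labels do not spell out these genotype names, and no source used here gives the Cre driver. By their names both osteoblast groups carry a Runx2 alteration, and no unaltered osteoblasts were analysed here. Nothing in the labels shows that libraries of a group came from separate animals, so p-values reflect only how far these libraries differ from each other. Values are FPKM, a measure of fragments scaled to transcript length and to the mapped fragments of the library. Each chondrocyte sort has 1 value computed by the authors over its libraries, with no replicate error, whereas each osteoblast library has its own value. The tables were normalized separately and the libraries made with different kits, so levels set across them are descriptions.

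Glycosaminoglycans are long sugar chains, most of them carried by proteoglycan core proteins. A short linker, begun with xylose on a serine of the core protein, is extended in the Golgi into either chondroitin or heparan chains, which sulfotransferases then modify at defined positions using the sulfate donor PAPS. Hyaluronan is made at the plasma membrane without a core protein and is not sulfated. In cartilage the chondroitin sulfate chains of aggrecan hold water and resist compression, and heparan sulfate binds growth factors and morphogens.

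Marker genes placed the groups as follows. The level of Col10a1 was 59.5 FPKM in the Col2+ sort against 2895 FPKM in the Col10+ sort, while that of Col2a1 was 44205 and 31532 FPKM. The chondrocyte markers did not move together. Of 6 listed, 2 were higher in the Col10+ sort, Matn1 by 5.56-fold and Acan by 1.01-fold. Sox9 was 5.77-fold lower there, at 595 and 103 FPKM. Markers of cells other than chondrocytes were higher in the Col10+ sort for 8 of 8 neutrophil, 9 of 9 macrophage, 4 of 4 erythroid, 7 of 7 osteoclast and 6 of 6 endothelial genes present. The summed levels were 0.262 and 3941 FPKM for neutrophil genes, 3.45 and 1725 FPKM for macrophage genes, 1.62 and 712 FPKM for erythroid genes, 20.4 and 369 FPKM for osteoclast genes, and 0.197 and 77.8 FPKM for endothelial genes. All 7 osteoblast markers were higher too, with a sum of 301 FPKM in Col2+ and 5986 FPKM in Col10+ cells. The largest values in that Col10+ sum were those of Col1a1 (3305 FPKM) and Col1a2 (2259 FPKM). Ibsp and Alpl of this list also served as hypertrophic chondrocyte markers, so the list does not separate osteoblasts from the sorted cells. Camp, Ltf, Mpo, Retnlg, Tyrobp, C1qa, C1qb, C1qc and Emr1 were listed at 0 in the Col2+ sort. The part of other cells in any difference between the sorts was not tested, and in such bulk values fewer cells of a type and less RNA per cell cannot be told apart. In the osteoblasts Runx2 itself had 43.4 and 53.9 FPKM under Runx2_cHet_KO and 32.9 and 32.6 FPKM under Runx2_cHom_KO (log2 change -0.55, SE 0.13, limma adjusted p 0.0707), a gene-wide value that cannot be assigned to a deleted part. Bglap, the osteocalcin gene, was at 21.7 and 32.6 FPKM and listed at 0 in both Runx2_cHom_KO libraries.

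Between the chondrocyte sorts most enzymes, like most genes, were lower in Col10+ cells. Of the 33 listed genes that reached 5 FPKM in at least 1 sort, 25 were lower and 8 higher. The lower share was 75.8%, against 65.2% of all 8354 genes at that level. The median difference in log2(FPKM + 1) was -0.63 for the enzymes and -0.31 for all such genes. A difference of at least 2-fold on this scale was seen downward in 9 genes, Xylt1, B3galt6, Chsy1, Chsy3, Chpf, Chst3, Extl1, Has1 and Ugdh, and upward in Chst15. Among all genes 14.2% were lower and 13.8% higher by this limit. After both sorts were centred on the median ratio, a shift of -0.35, the lower genes numbered 5 (B3galt6, Chsy3, Chst3, Extl1 and Has1) and the higher 2 (Chst15 and Ndst1), with 7.22% and 18.5% of all genes. Xylt1, Chsy1, Chpf and Ugdh were thus within 2-fold of the median gene. None of these differences could be tested, because each sort has 1 value.

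**Figure D1:**
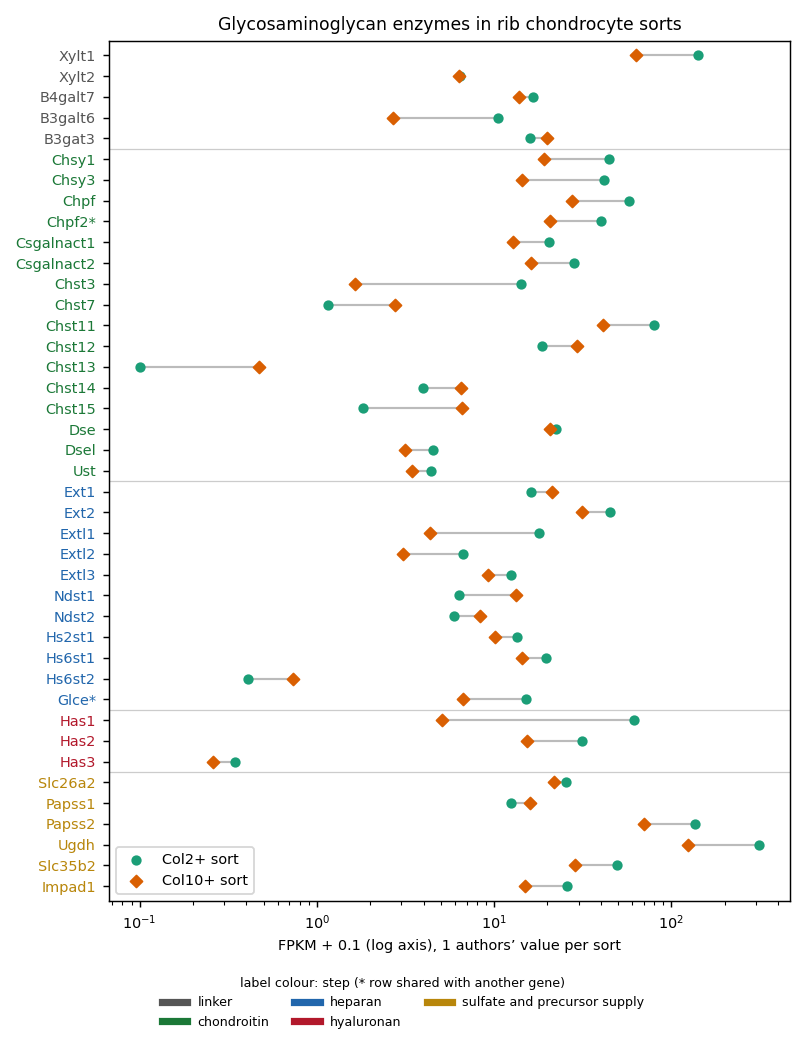
FPKM + 0.1 on a log axis for each listed enzyme in the Col2+ sort (circles) and the Col10+ sort (diamonds), 1 authors' value per sort, grouped by step, with an asterisk for a row shared with another gene. The longest lines to the left are those of Has1 (61.7 to 4.97 FPKM) and Chst3 (14.0 to 1.55 FPKM).

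In the osteoblasts no listed enzyme passed the test. Of 34 genes tested, 0 reached a limma adjusted p under 0.05, where 3.78% of the 11909 genes tested rose and 3.54% fell in Runx2_cHom_KO libraries. The smallest adjusted p was 0.0761, for Chpf. At an unadjusted p under 0.05 there were 10 of the 34, 8 of them higher and 2 lower, against 26.8% of all genes, a share near the background. Both Runx2_cHom_KO libraries lay above both Runx2_cHet_KO libraries for 14 genes, where this held for 26.7% of all genes, and below for 9, where it held for 31.3%. The median log2 change was 0.13 for the enzymes and -0.03 for all genes. Chst7, Chst13, Extl1 and Has3 were too low to be tested. Leaving out a single Runx2_cHet_KO library changed this count, and leaving out a single Runx2_cHom_KO library did not. The count over all genes also differed in each of these fits. Each of them leaves a single library in a group, so no enzyme is called from them.

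**Figure D2:**
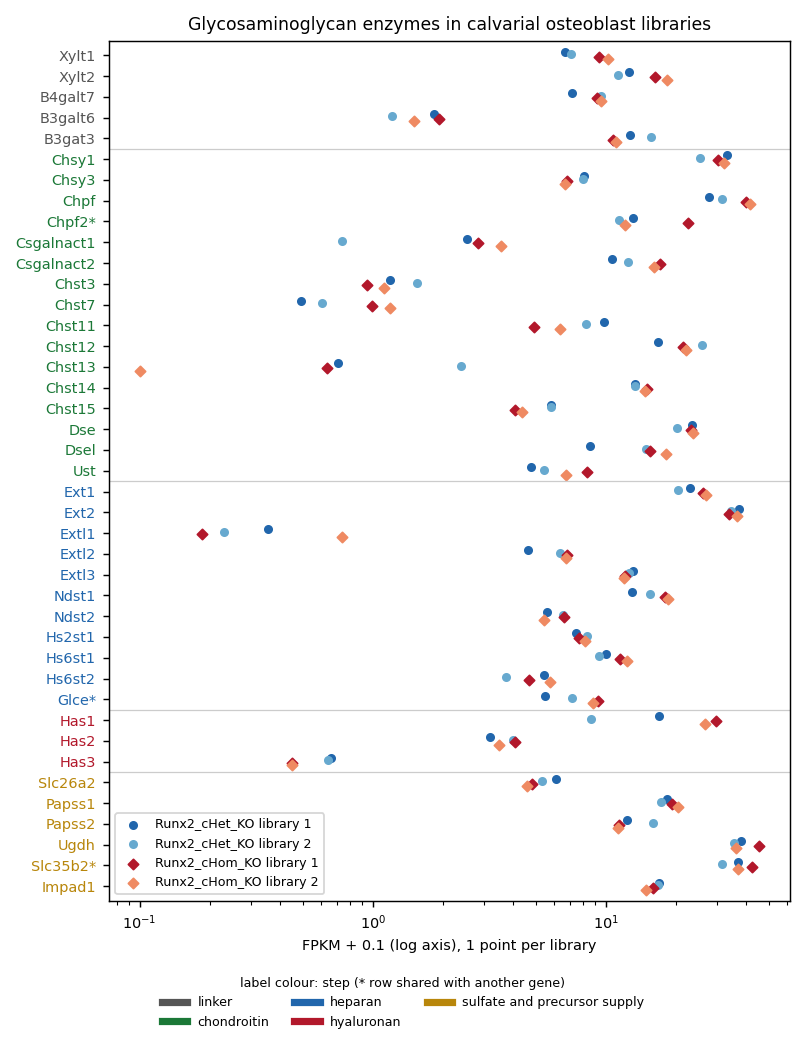
FPKM + 0.1 on a log axis for each listed enzyme in the 4 osteoblast libraries, 1 point per library, grouped by step. The points of Has1 are well apart (16.8 and 8.56 against 29.5 and 26.5 FPKM), while those of most enzymes lie close together.

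Has1, Chst3 and Extl1 had the largest log2 differences downward between the sorts and Chst15 was the one past the limit upward, and their promoters are shown for that reason. Each covers 250 bases before and 50 bases after the annotated start, 300 bases in all, from RefSeq on GRCm38.p6, a build other than that of the expression tables. Has1 lies at chr17:17855139-17855438, Chst3 at chr10:60219211-60219510, Extl1 at chr4:134372498-134372797 and Chst15 at chr7:132317179-132317478, all on the minus strand. Sequences run 5′ to 3′ and capitals mark matches, on either strand, to TGTGGT (RUNX), ACAAAG (SOX) or GGGCGG (GC box).
Has1: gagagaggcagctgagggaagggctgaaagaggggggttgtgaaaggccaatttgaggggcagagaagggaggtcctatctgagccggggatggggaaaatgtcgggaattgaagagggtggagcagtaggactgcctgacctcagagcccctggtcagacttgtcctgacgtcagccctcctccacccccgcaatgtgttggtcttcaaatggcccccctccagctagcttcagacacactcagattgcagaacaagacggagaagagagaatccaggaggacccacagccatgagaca
Chst3: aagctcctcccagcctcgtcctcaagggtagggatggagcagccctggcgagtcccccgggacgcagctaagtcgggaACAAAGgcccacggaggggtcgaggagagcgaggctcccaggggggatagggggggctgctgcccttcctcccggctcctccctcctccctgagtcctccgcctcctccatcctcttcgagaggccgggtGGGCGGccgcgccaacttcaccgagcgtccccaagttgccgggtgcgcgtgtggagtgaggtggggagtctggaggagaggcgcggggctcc
Extl1: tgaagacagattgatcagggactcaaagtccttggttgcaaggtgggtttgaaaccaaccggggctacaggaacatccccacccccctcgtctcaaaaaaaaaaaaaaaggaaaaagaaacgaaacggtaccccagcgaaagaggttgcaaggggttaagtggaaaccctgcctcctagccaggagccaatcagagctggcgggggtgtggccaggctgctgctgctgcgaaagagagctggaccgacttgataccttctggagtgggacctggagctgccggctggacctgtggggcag
Chst15: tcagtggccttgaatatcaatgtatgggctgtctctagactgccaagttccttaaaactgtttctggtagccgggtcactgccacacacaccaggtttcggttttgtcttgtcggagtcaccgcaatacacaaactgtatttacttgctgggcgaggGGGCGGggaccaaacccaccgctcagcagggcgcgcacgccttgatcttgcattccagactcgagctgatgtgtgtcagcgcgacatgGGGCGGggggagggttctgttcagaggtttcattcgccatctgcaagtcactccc

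Has1 and Extl1 held none of the motifs, Chst3 held 1 SOX match and 1 GC box, and the printed Chst15 promoter held 2 GC boxes. A further annotated Chst15 promoter, at chr7:132316977-132317276, also held 2 GC boxes and is not printed. Of 38 promoters of 31 matched enzymes, 2 held the RUNX letters (those of Dse and Papss2), a share of 5.26% against 16.8% of all 32851 promoters. The SOX letters were in 1 of the 38, a share of 2.63% against 18.7%. The GC box was in 25 of the 38, a share of 65.8% against 35.7%. These shares are not adjusted for base content, which was not compared between the 38 and all promoters. The median G and C content of all promoters was 52.7%. It was 57%, 70%, 55.3% and 55% in the promoters printed for Has1, Chst3, Extl1 and Chst15. A match is a description of the letters and not a site of binding.

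The linker genes were led by Xylt1, one of the xylosyltransferases that start the chain on the core protein. Xylt1 stood at 141 FPKM in Col2+ and 62.8 FPKM in Col10+ cells, a ratio of 2.24, and its level ranked at percentile 95.8 and 93.2 of genes at 1 FPKM or more. Its paralogue Xylt2 was at 6.33 and 6.22 FPKM. In the osteoblasts the order was the other way: Xylt2 was at 12.5 and 11.2 FPKM in Runx2_cHet_KO and 16.2 and 18.2 FPKM in Runx2_cHom_KO libraries, and Xylt1 at 6.60 and 6.96 against 9.22 and 10.1 FPKM. Neither gene's groups overlapped, with log2 changes of 0.50 (SE 0.13, limma adjusted p 0.0771) and 0.45 (SE 0.13, adjusted p 0.0973).

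Among the galactosyl- and glucuronyltransferases that complete the linker, B3galt6, which adds its second galactose, was at 10.4 FPKM in Col2+ and 2.58 FPKM in Col10+ cells, 4.04-fold lower. B4galt7, which adds the preceding galactose, was at 16.6 and 13.8 FPKM, and B3gat3, which adds glucuronic acid, at 15.9 and 19.9 FPKM. B3gat3 was at 12.6 and 15.5 FPKM in Runx2_cHet_KO and 10.7 and 10.9 FPKM in Runx2_cHom_KO libraries (log2 change -0.34, SE 0.14, limma adjusted p 0.187). B4galt7, between 7.07 and 9.40 FPKM, and B3galt6, between 1.11 and 1.82 FPKM, overlapped between the osteoblast groups.

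The chondroitin chain is started by Csgalnact1 and Csgalnact2 and lengthened by the synthases Chsy1 and Chsy3 with the polymerizing factors Chpf and Chpf2. All 6 were lower in Col10+ cells. Chsy3 was at 41.8 and 14.3 FPKM (2.93-fold), Chsy1 at 44.5 and 18.9 FPKM (2.35-fold) and Chpf at 57.7 and 27.3 FPKM (2.12-fold). Csgalnact1 was at 20.4 and 12.8 FPKM, Csgalnact2 at 28.0 and 16.2 FPKM, and the row shared by Chpf2 and Mir671 at 39.8 and 20.6 FPKM.

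In the osteoblasts Chpf was at 27.6 and 31.5 FPKM in Runx2_cHet_KO and 39.9 and 41.4 FPKM in Runx2_cHom_KO libraries (log2 change 0.45, SE 0.11, limma adjusted p 0.0761). Csgalnact2 was at 10.5 and 12.3 against 17.0 and 16 FPKM (log2 change 0.50, SE 0.13, adjusted p 0.0803). Groups did not overlap for either gene, and neither passed. Csgalnact1 was low, at 2.43 and 0.639 against 2.72 and 3.45 FPKM, with its Runx2_cHet_KO libraries far from each other (log2 change 0.78, SE 0.37, limma adjusted p 0.252). Chsy1, at 33.1 and 25.1 against 30.1 and 31.9 FPKM, overlapped. Chsy3 was slightly lower in both Runx2_cHom_KO libraries, at 8.0 and 7.92 against 6.72 and 6.58 FPKM (log2 change -0.23, SE 0.13, adjusted p 0.315).

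Chondroitin is sulfated at the 4-O and 6-O positions by separate enzymes. Chst3, the main chondroitin 6-O-sulfotransferase, was at 14.0 FPKM in Col2+ and 1.55 FPKM in Col10+ cells, 9.05-fold lower, and its rank went from percentile 59.8 to 7.07. Chst7, which also acts at the 6-O position, was at 1.06 and 2.68 FPKM. Chst11, the principal 4-O-sulfotransferase of cartilage, was the most abundant at 80.0 and 41.2 FPKM, and Chst12, a further 4-O enzyme, was at 18.6 and 29.2 FPKM. Chst13, the remaining 4-O enzyme, was listed at 0 in Col2+ cells and at 0.369 FPKM in Col10+ cells. Chst15, which adds a second sulfate at the 6-O position to 4-O-sulfated units, had 1.72 and 6.52 FPKM, a 3.78-fold higher level in the Col10+ sort.

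Chst3 and Chst7 were summed as 6-O enzymes, and Chst11, Chst12 and Chst13 as 4-O enzymes. The 6-O sum was 0.153 of the 4-O sum in Col2+ cells and 0.0597 in Col10+ cells. Chst15 was left out of both sums, and the ratio depends on that choice. The 6-O sum was 15.1 and 4.23 FPKM in the sorts, beside 1.72 and 6.52 FPKM for Chst15. The 4-O sum was thus 6.54 and 16.8 times the 6-O sum. In osteoblasts the 6-O over 4-O ratio was 0.0546 and 0.0539 in Runx2_cHet_KO and 0.0649 and 0.0742 in Runx2_cHom_KO libraries, with no overlap of the groups. A two-sided exact permutation test gave p = 0.333, the smallest that 2 libraries against 2 allow, and 0.444 after adjustment over the 4 ratios computed. These are ratios of transcript levels and not of sulfated chains.

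In the osteoblasts Chst11 was at 9.68 and 8.10 FPKM in Runx2_cHet_KO and 4.82 and 6.23 FPKM in Runx2_cHom_KO libraries (log2 change -0.60, SE 0.17, limma adjusted p 0.0980). Chst15 was at 5.74 and 5.69 against 3.97 and 4.25 FPKM (log2 change -0.40, SE 0.14, adjusted p 0.151). Both were lower in each Runx2_cHom_KO library than in either Runx2_cHet_KO library, without passing. Chst12, the most abundant of the group there, overlapped at 16.7 and 25.9 against 21.3 and 22.1 FPKM. Chst3 was near 1 FPKM in all 4 libraries, between 0.841 and 1.45 FPKM. Among the genes too low to test, Chst7 was at 0.393 and 0.505 against 0.888 and 1.09 FPKM, and Chst13 at 0.611 and 2.29 against 0.539 FPKM and a value listed at 0. Chst11 over Chst3 was 5.71 in Col2+ and 26.6 in Col10+ cells. In osteoblasts it was 8.96 and 5.59 against 5.73 and 6.13 (exact permutation p = 1), and without Runx2_cHet_KO library 1 the log2 difference turned from -0.26 to 0.08.

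Dermatan sulfate is made from chondroitin by the epimerases Dse and Dsel, after which Chst14 adds 4-O and Ust 2-O sulfate. Dse was even across the groups, at 22.1 and 20.5 FPKM in the sorts and between 20.1 and 23.6 FPKM in osteoblasts. Chst14 was at 3.89 and 6.37 FPKM in the sorts and between 13.2 and 15.0 FPKM in osteoblasts. Dsel was at 4.42 and 3.05 FPKM in the sorts, and at 8.48 and 14.8 against 15.3 and 18.1 FPKM in the osteoblast groups (log2 change 0.53, SE 0.26, limma adjusted p 0.265). Ust was at 4.29 and 3.34 FPKM in the sorts, and at 4.67 and 5.31 against 8.21 and 6.65 FPKM in the osteoblast groups (log2 change 0.49, SE 0.16, adjusted p 0.130).

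Among the heparan sulfate genes 1 of 9 at 5 FPKM or more passed the limit. Ext1 and Ext2, which together form the heparan polymerase, were at 16.1 and 21.1 FPKM and at 45.0 and 31.3 FPKM. That was Extl1, a related glycosyltransferase, at 17.8 FPKM in Col2+ and 4.24 FPKM in Col10+ cells, 4.20-fold lower. Extl3, which begins the heparan chain, was at 12.4 and 9.16 FPKM, and Extl2, another relative, at 6.56 and 2.95 FPKM. The chondroitin chain enzymes summed to 3.14 times the heparan polymerase in Col2+ and 1.71 times in Col10+ cells. Chpf2, whose row is shared, was left out of this sum, here and in the osteoblasts.

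The enzymes that modify heparan went both ways. Ndst1, which removes acetyl groups and adds N-sulfate, was at 6.22 and 13.3 FPKM, just under the limit at a log2 difference of 0.98, and Ndst2, of the same function, was at 5.86 and 8.27 FPKM. The row shared by Glce, the heparan epimerase, and Mir5133 was at 15.1 and 6.55 FPKM. Hs2st1, a 2-O-sulfotransferase, was at 13.4 and 9.97 FPKM and Hs6st1, a 6-O-sulfotransferase, at 19.5 and 14.4 FPKM. Hs6st2, of the same family, was at 0.306 and 0.637 FPKM in the sorts and between 3.63 and 5.69 FPKM in osteoblasts.

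In the osteoblasts Ext1 was at 22.9 and 20.3 FPKM in Runx2_cHet_KO and 25.9 and 26.8 FPKM in Runx2_cHom_KO libraries (log2 change 0.28, SE 0.11, limma adjusted p 0.186). Ndst1 was at 12.9 and 15.3 against 17.9 and 18.4 FPKM (log2 change 0.35, SE 0.13, adjusted p 0.158). For both genes the groups did not overlap, and the difference did not pass. Ext2 (33.6 to 37.0 FPKM), Hs2st1 (7.32 to 8.22 FPKM) and Ndst2 (5.34 to 6.48 FPKM) overlapped. Extl1 was between 0.0845 and 0.638 FPKM. Extl3 (11.9 to 12.9 FPKM) was lower, and Extl2 (4.54 to 6.70 FPKM) and Hs6st1 (9.28 to 12.2 FPKM) higher, in both Runx2_cHom_KO libraries, with limma adjusted p of 0.688, 0.382 and 0.226. The row shared by Glce and Mir5133 was at 5.36 and 7.09 against 9.17 and 8.68 FPKM. It is not counted among the members. The chondroitin chain over heparan polymerase ratio was 1.36 and 1.42 in Runx2_cHet_KO and 1.62 and 1.57 in Runx2_cHom_KO libraries (two-sided exact permutation p = 0.333, adjusted 0.444).

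**Figure D3:**
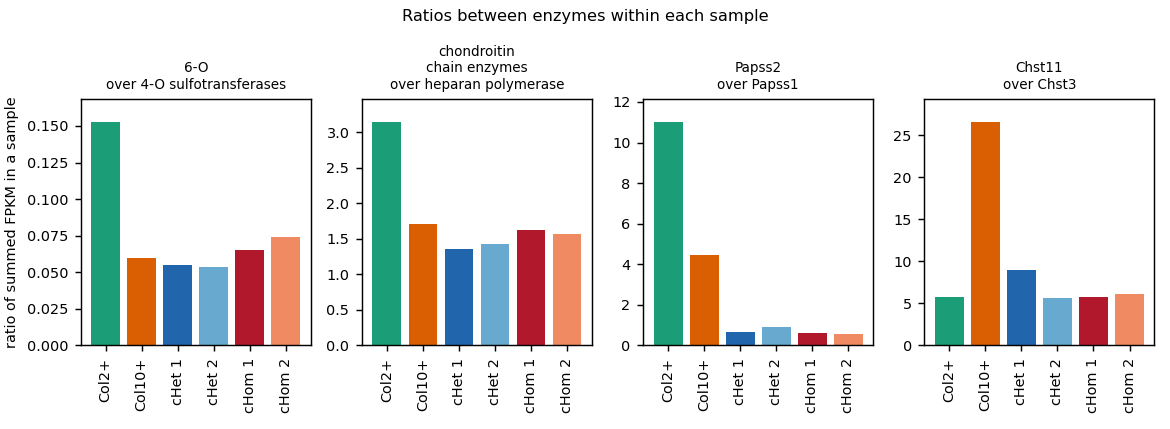
Ratios of summed FPKM, as bars from 0 on linear axes, for 4 pairs of enzyme groups, with 1 bar per chondrocyte sort and 1 per osteoblast library (cHet, Runx2_cHet_KO; cHom, Runx2_cHom_KO). Papss2 over Papss1 runs from 11 in Col2+ cells to 0.551 in an osteoblast library, and the 6-O over 4-O ratio is highest in Col2+ cells at 0.153. Chst15 and Chpf2 are in none of the sums.

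Of the hyaluronan synthases, Has1 had the largest difference between the sorts of any listed enzyme. It was at 61.7 FPKM in Col2+ and 4.97 FPKM in Col10+ cells, 12.4-fold lower, in the more abundant of its 2 chondrocyte rows, and the other row was at 1.30 and 0.171 FPKM. Has2, the synthase required in embryonic development, was at 31.4 and 15.3 FPKM, just under the limit at a log2 difference of -0.99, and Has3 was at 0.245 and 0.160 FPKM. The 3 genes summed to 93.3 and 20.4 FPKM.

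In the osteoblasts Has1 was at 16.8 and 8.56 FPKM in Runx2_cHet_KO and 29.5 and 26.5 FPKM in Runx2_cHom_KO libraries. The groups did not overlap, and the Runx2_cHet_KO libraries differed from each other. The log2 change was 1.15 (SE 0.30, limma adjusted p 0.0866). It was 1.60 without Runx2_cHet_KO library 1, 0.71 without Runx2_cHet_KO library 2, 1.08 without Runx2_cHom_KO library 1 and 1.23 without Runx2_cHom_KO library 2. Runx2_cHet_KO library 1 also had a macrophage marker sum of 375 FPKM, against 56.9 to 76.8 FPKM in the other 3. Has2 overlapped between groups, between 3.1 and 3.99 FPKM, and Has3, too low to test, was between 0.348 and 0.561 FPKM.

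Sulfate and precursor supply held the most abundant member. Ugdh, which makes the UDP-glucuronic acid used by all these chains, was at 314 FPKM in Col2+ and 125 FPKM in Col10+ cells, 2.51-fold lower, at percentile 98.0 and 96.8. Papss2 and Papss1 make PAPS. Papss2 was at 136 and 70.5 FPKM in the sorts and Papss1 at 12.3 and 15.8 FPKM, a ratio of 11 and 4.46. In osteoblasts Papss2 was at 12.3 and 15.8 against 11.3 and 11.2 FPKM (log2 change -0.28, SE 0.15, limma adjusted p 0.299), and Papss1 at 18.2 and 17.2 against 19.2 and 20.3 FPKM (log2 change 0.15, SE 0.11, adjusted p 0.440). The ratio was below 1 in each library, at 0.673 and 0.917 in Runx2_cHet_KO and 0.592 and 0.551 in Runx2_cHom_KO libraries, again without overlap (two-sided exact permutation p = 0.333, adjusted 0.444).

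The sulfate transporter Slc26a2 was at 25.2 and 21.7 FPKM in the sorts. In osteoblasts it was at 6.01 and 5.22 against 4.75 and 4.49 FPKM (log2 change -0.23, SE 0.15, limma adjusted p 0.378). Slc35b2, which carries PAPS into the Golgi, was at 49.0 and 28.4 FPKM, and its shared osteoblast row was between 31.5 and 42.3 FPKM. Impad1, the Golgi phosphatase that clears the by-product of sulfation, was at 25.8 and 14.8 FPKM, and between 14.7 and 16.8 FPKM in osteoblasts. Ugdh was between 35.3 and 45.5 FPKM there, with overlapping groups.

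Other genes of the pathway were read from 4 lists. In the osteoblasts 13 of 57 genes tested passed the limma test, a share of 22.8% against 7.32% of all genes. The lists were chosen with earlier results of these data known, so the larger share is a description of these lists only. None of the 13 held when either Runx2_cHom_KO library was left out, fits in which the calls over all genes went from 872 to 0 and 1. The log2 change of Acan there was 0.85 in both fits, with limma adjusted p of 0.212 and 0.210, and that of Sulf1 was 1.19 and 1.27, with adjusted p of 0.214 and 0.202. Of 8 core proteins of chondroitin and dermatan sulfate tested, 2 rose and 1 fell. Acan, which encodes aggrecan, rose from 32.9 ± 2.06 to 60.1 ± 0.129 FPKM (SD, n = 2 each; log2 change 0.85, SE 0.10, limma adjusted p 0.0172). It is also a chondrocyte marker, and Col2a1, Col9a1 and Col11a1 were likewise higher in both Runx2_cHom_KO libraries, at 1.88, 1.65 and 1.57 times the Runx2_cHet_KO mean beside 1.82 for Acan. Dcn, decorin, rose from 167 ± 15.7 to 284 ± 24.2 FPKM (log2 change 0.76, adjusted p 0.0296). Cspg4 fell from 29.3 ± 0.0315 to 19.2 ± 0.572 FPKM (log2 change -0.59, adjusted p 0.0330). Of 13 heparan sulfate core proteins 2 rose (Agrn and Tgfbr3) and 2 fell (Gpc1 and Sdc4). Agrn, agrin, rose from 13.9 ± 0.165 to 21.3 ± 0.14 FPKM (log2 change 0.59, adjusted p 0.0362). With the rows of its symbol summed, Agrn did not pass (log2 change 0.45, limma adjusted p 0.0688). Sdc4 fell from 44.8 ± 6.43 to 26.0 ± 1.59 FPKM (log2 change -0.76, adjusted p 0.0362). Gpc1, a glypican anchored in the membrane, fell from 139 ± 2.2 to 87.5 ± 3.03 FPKM (log2 change -0.66, adjusted p 0.0241). Tgfbr3, the type III TGF-beta receptor, rose from 16.1 ± 1.90 to 28.2 ± 1.46 FPKM (log2 change 0.77, adjusted p 0.0296).

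Of 21 other synthesis and sulfation genes tested, 4 rose and 2 fell. Hs3st1, a heparan 3-O-sulfotransferase, rose from 4.71 ± 1.58 to 15.3 ± 3.03 FPKM (log2 change 1.53, SE 0.24, limma adjusted p 0.0274). Sulf1, which removes 6-O sulfate from heparan outside the cell, rose from 10.9 ± 2.13 to 26.7 ± 1.1 FPKM (log2 change 1.23, SE 0.15, adjusted p 0.0186). Acpl2, a synonym of the xylose phosphatase gene Pxylp1, fell from 10.5 ± 1.67 to 3.46 ± 0.0969 FPKM (log2 change -1.36, SE 0.16, adjusted p 0.0171). Of 15 degradation genes 0 passed in limma, with 6 at an unadjusted p under 0.05, where 26.8% of all genes were.

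Markers of some other cells moved with the osteoblast groups. Skeletal muscle genes summed to 2.97 and 4.74 FPKM in Runx2_cHet_KO and 51.9 and 80.3 FPKM in Runx2_cHom_KO libraries, with 8 of 8 higher. Fibroblast genes, Dcn among them, summed to 1438 and 1770 against 2674 and 2606 FPKM, with 6 of 6 higher. Endothelial genes summed to 22.4 and 6.38 against 51.1 and 44.3 FPKM, with 6 of 6 higher. Chondrocyte genes summed to 398 and 260 against 490 and 605 FPKM, with 4 of 6 higher (Col2a1, Acan, Col9a1 and Col11a1) and 2 of them, Acan and Col11a1 (limma adjusted p 0.0383), past the test. Of 5 hypertrophic chondrocyte genes only Col10a1 was higher, at 0.202 and 26.9 against 69.7 and 98.7 FPKM (limma adjusted p 0.409). Ihh and Mmp13 overlapped, and Ibsp and Alpl, also on the osteoblast list, were lower. The 5 genes summed to 1249 and 847 against 582 and 810 FPKM. All 7 osteoblast markers were lower. Of 9 macrophage and 4 erythroid genes present, 0 were higher and 0 lower. Of 8 neutrophil genes 1 was higher and 0 lower, and of 7 osteoclast genes 2 were higher and 1 lower. Higher and lower here mean both Runx2_cHom_KO libraries above or below both Runx2_cHet_KO libraries, true of 26.7% and 31.3% of all genes tested. The limma test was passed upward by 6 muscle, 4 fibroblast, 1 endothelial and 1 osteoclast gene, and downward by 2 osteoblast markers. The osteoclast gene was Mmp9, at 2.46 and 3.20 against 24.6 and 23.1 FPKM (limma adjusted p 0.00523). The part of other cells in these changes was not tested.

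**Figure D4:**
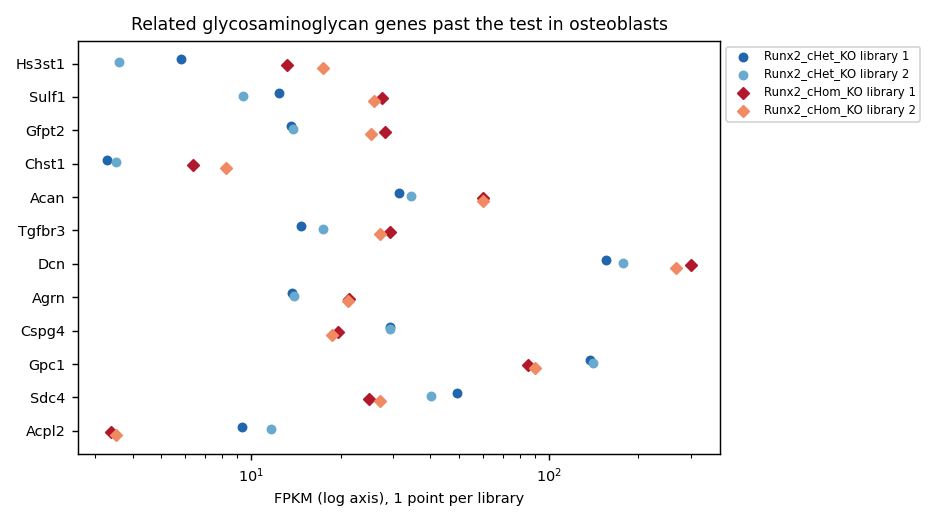
FPKM on a log axis in the 4 osteoblast libraries for 12 of the further glycosaminoglycan genes that passed the limma test, 1 point per library. Hs3st1, Sulf1 and Acan are higher in both Runx2_cHom_KO libraries, and Acpl2 and Gpc1 lower.

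In the chondrocytes the same lists are described by size of difference only. Counts in all 4 lists stand beside 13.8% of all genes higher and 14.2% lower by the same 2-fold limit. Acan was at 1089 and 1104 FPKM, so the core protein gene of aggrecan was near level while several chain enzymes were lower. Of 7 chondroitin and dermatan sulfate core proteins at 5 FPKM or more 2 were higher in Col10+ cells, Srgn (3.55 and 110 FPKM), whose serglycin is typical of blood cell granules, and Vcan (0.554 and 14.5 FPKM). Another 3 were lower, Dcn (382 and 158 FPKM), Bgn (2279 and 1045 FPKM) and Epyc, all within the limit after centring. Of 12 heparan sulfate core proteins 3 were higher and 5 lower. Sdc4, a membrane syndecan, was at 523 and 145 FPKM and the glypican Gpc6 at 51.2 and 14.3 FPKM, whereas Col18a1, a basement membrane collagen, was at 1.68 and 14.1 FPKM and Sdc3 at 33.6 and 90.9 FPKM.

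Of 15 other synthesis genes 1 was higher, Sulf1 at 6.23 and 13.9 FPKM, and 3 were lower. These were Hs3st3b1 and Hs3st3a1, further 3-O-sulfotransferases, at 10.7 and 2.68 FPKM and at 7.63 and 3.21 FPKM, and Bpnt1, a phosphatase of sulfate metabolism, at 14.9 and 5.19 FPKM. Hs3st3a1 was within the limit after centring. Of 13 degradation genes 3 were higher: Galns (1.26 and 7.58 FPKM), Arsb (6.03 and 21.9 FPKM) and Gusb (13.9 and 37.7 FPKM), all lysosomal enzymes. The lower one was 9930013L23Rik, a synonym of the hyaluronan-degrading gene Cemip, at 9.22 and 1.67 FPKM. The neutrophil and macrophage sums given above were higher in the same sort, and their part was not tested.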

How the data were processed

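FPKM values were deposited by the authors, with 1 value per chondrocyte sort and 1 per osteoblast library, per the file headers. TopHat2 2.1.0, Cufflinks, Cuffdiff 2.2.1 and the build mm9 are named in the submitters' processing notes. No source used here states how sort values were combined. Chondrocyte libraries used 100 ng and osteoblast libraries 1.7 ng of RNA, per the labels' protocols. A further chondrocyte column (1) matched no sample and was not used. Depth is unknown, since the tables hold no counts.

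Rows without a name (3444 in the chondrocyte table) or with a date for a name (25 and 26) were dropped, and the row of highest mean was used where a symbol had several. Values were analysed as log2(FPKM + 1), which understates changes of low genes. Osteoblasts were tested with limma 3.58.1 in R 4.3.3, with trended and robust variances, on the 11909 genes that reached 1 FPKM in 2 or more libraries, adjusted by Benjamini-Hochberg and passed at 0.05. Chondrocyte genes were counted at a 2-fold difference with 5 FPKM or more in the higher sort. A simulation gave genes of the same level the same normal noise, and changed only genes with a mean log2(FPKM + 1) above 2. There the fit called 99 of 100 genes changed by a log2 of 1 and 14 of 11709 unchanged ones. Unequal noise between real genes was not simulated, so these counts do not say what share of changed enzymes the test would find. Members and lists were chosen with earlier results of these data known. All members are named, and of other lists up to 4 that passed, by size of change. Alternatives varied the pseudocount, the filter or floor, the scaling, duplicate rows, the replicate block and the libraries used. A gene counted among those of the other lists is not reported here.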

Additional observations from a re-analysis of the deposited data

How the results depend on the processing

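The osteoblast count of enzymes passing the test was 0 under every other scaling, pseudocount and filter tried and with the replicate block, and ran from 0 to 3 when 1 library was left out (0 to 2 with a 2-fold limit added). The count over all genes, 872, was 331 with no filter, 346 with the replicate block and 0 to 1170 without 1 library. The 13 further genes became 5 with no filter, 4 with the replicate block and 0 to 17 without 1 library. A library left alone in its group is assumed to vary like the other group. The labels share replicate numbers but do not say that they pair libraries. In the chondrocytes, enzymes higher in Col10+ cells numbered 2 with a pseudocount of 0.1 and 2 after centring, in place of 1. The lower enzymes numbered 5 after centring, in place of 9. Over all genes, 1940 were higher with a floor of 1 FPKM, in place of 1150, and 606 lower after centring, in place of 1188. Centring left 5 lower list genes of 12. Leaving out a library lowers the number of samples, and the cause of the other moves was not tested. The missing depth and the single value per sort limit what low genes such as Chst3 can show.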
